A study of Rattus norvegicus with 6 samples.

Results

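Carrier proteins of the solute carrier (Slc) superfamily move amino acids and several neurotransmitters across cell membranes. The genes described here are the rat members of the families Slc1a, Slc6a, Slc7a, Slc36a, Slc38a and Slc43a that the array's annotation names, without the glial glutamate transporter genes Slc1a2 and Slc1a3. The choice was made by symbol alone and gave 50 genes of the 13949 tested, each measured by 1 probe set with values on every array. One of them, Slc7a6os, shares the letters of the rule but encodes no transporter, so 49 of the 50 were transporter genes. The counts below cover all 50.

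Cells were rat oligodendrocyte progenitors (OPCs), which divide and give rise to the myelin-forming oligodendrocytes. They were primary cells prepared from rat pups at postnatal day 1 to 2. They were kept for 2 days in DMEM with N2, B27, antibiotics, NT3 and PDGF, growth factors that hold OPCs in division, and this medium was common to both groups. In the control group 3 samples were left unstimulated, and in the fibrinogen group 3 samples were exposed for 12 h to fibrinogen, the blood clotting protein, which the title of the series links to bone morphogenetic protein signaling and poor myelin repair. No strain, sex, dose or genetic change is given in the labels. One Affymetrix array was hybridised per sample, and the values are log2 levels, in which a difference of 1 is a 2-fold difference.

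Slc1a carriers take up glutamate or exchange small neutral amino acids, and Slc6a carriers use the sodium gradient to take up monoamines, GABA, glycine, taurine, creatine and some amino acids. The Slc7a family holds carriers of cationic amino acids and the light chains that work in pairs with a heavy chain, Slc3a2 or Slc3a1. Slc38a carriers take up glutamine and other neutral amino acids together with sodium, Slc36a carriers move small amino acids with protons, and Slc43a carriers move branched-chain and other large neutral amino acids or nucleobases. Cells short of amino acids raise many of these genes through the transcription factor Atf4, which binds a sequence called CARE, and the cystine carrier gene Slc7a11 is also raised through the antioxidant response element.

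For these regulatory links the stretches upstream of the transcription start were searched on both strands for TGATGNAA, the core of CARE, and TGACNNNGC, the core of the antioxidant response element. RefSeq promoter windows of build GRCr8, from 250 bases before to 50 bases after the start, were matched by symbol for 38 of the 50 genes. TGATGNAA occurred in the windows of 3 of these 38 genes (7.89%) and in 3.98% of all 33469 windows of that length, and TGACNNNGC in those of 6 (15.8%) and in 12.1%. The stretches that hold the CARE core, from the neutral amino acid carrier genes Slc1a4 and Slc38a1 and the arginine carrier gene Slc7a1, are printed as the members that a CARE match would tie to amino acid supply. Slc6a6 and Slc38a2 are printed because their probe sets had the largest negative differences of the 50 genes. Each line runs 5′ to 3′ on the gene's strand, and capitals mark the match.
Slc1a4, chr14:98761744-98761812, minus strand: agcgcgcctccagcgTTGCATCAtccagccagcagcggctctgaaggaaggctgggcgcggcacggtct
Slc38a1, chr7:129681490-129681589, minus strand: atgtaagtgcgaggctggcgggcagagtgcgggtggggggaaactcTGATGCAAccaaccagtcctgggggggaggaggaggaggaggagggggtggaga
Slc7a1, chr12:11664412-11664487, plus strand: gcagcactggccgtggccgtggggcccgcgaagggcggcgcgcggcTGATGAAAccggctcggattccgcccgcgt
Slc6a6, chr4:125752355-125752455, plus strand: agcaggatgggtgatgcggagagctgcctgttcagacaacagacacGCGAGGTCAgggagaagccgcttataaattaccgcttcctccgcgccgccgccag
Slc38a2, chr7:129742620-129742715, minus strand: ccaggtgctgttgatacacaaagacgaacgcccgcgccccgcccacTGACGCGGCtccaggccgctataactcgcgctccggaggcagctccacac
The first 3 lines hold the CARE core, which begins 235, 142 and 30 bases before the start, and the last 2 hold the antioxidant core, which begins 101 and 50 bases before it. In Slc1a4 and Slc6a6 the match lies on the opposite strand. The Slc7a1 window also held TGACNNNGC at a separate place, and so did the windows of Slc36a1, Slc7a7 and Slc6a11, which are not printed. In contrast to Slc6a6 and Slc38a2, these genes had positive differences. The log2 changes were 0.06 for Slc7a1, 0.20 for Slc36a1, 0.12 for Slc7a7 and 0.09 for Slc6a11. The window of Slc7a11 held neither motif. A match describes these letters only, and binding was not measured.

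No member of the 6 families passed the test: 0 of 50 rose and 0 fell at an adjusted p under 0.05 (limma, Benjamini-Hochberg over all 13949 genes). Among all genes 1.81% rose and 1.29% fell, 3.10% together. With no adjustment, p was under 0.05 for 5 members with higher and 3 with lower values, against 8.12% and 7.46% of all genes, or for 16% of the members against 15.6% in either direction. Under an adjusted p of 0.1 came 3 members, Slc6a6, Slc7a10 and Slc38a2, beside 5.26% of all genes. A difference beyond 0.5 on the log2 scale was seen in 0 members and in 1.96% of all genes. The 50 differences were split evenly, with 25 above and 25 below 0, and had a median log2 change of -0.0083 beside -0.0033 for all genes. The median absolute log2 change was 0.098 for the members and 0.087 for all genes. In 11 members the arrays of the groups did not overlap, 6 higher and 5 lower with fibrinogen, or 22% against 21.3% of all genes. These shares lay near the background of the array.

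A missed threshold does not show that a gene was unchanged, so intervals were used to bound the differences. The 95% interval of the log2 change lay between -1 and 1 for all 50 members, and for 99.3% of all genes. It lay between -0.5 and 0.5 for 45 members (90%) and for 89% of all genes. The widest reach was that of Slc6a6, with a bound of -0.69, a 1.61-fold difference. These intervals hold for each gene alone and are not adjusted for the number of genes. The median SE of the log2 change was 0.095 for the members and 0.087 for all genes, and the smallest difference called anywhere on the array was 0.29.

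**Figure D1:**
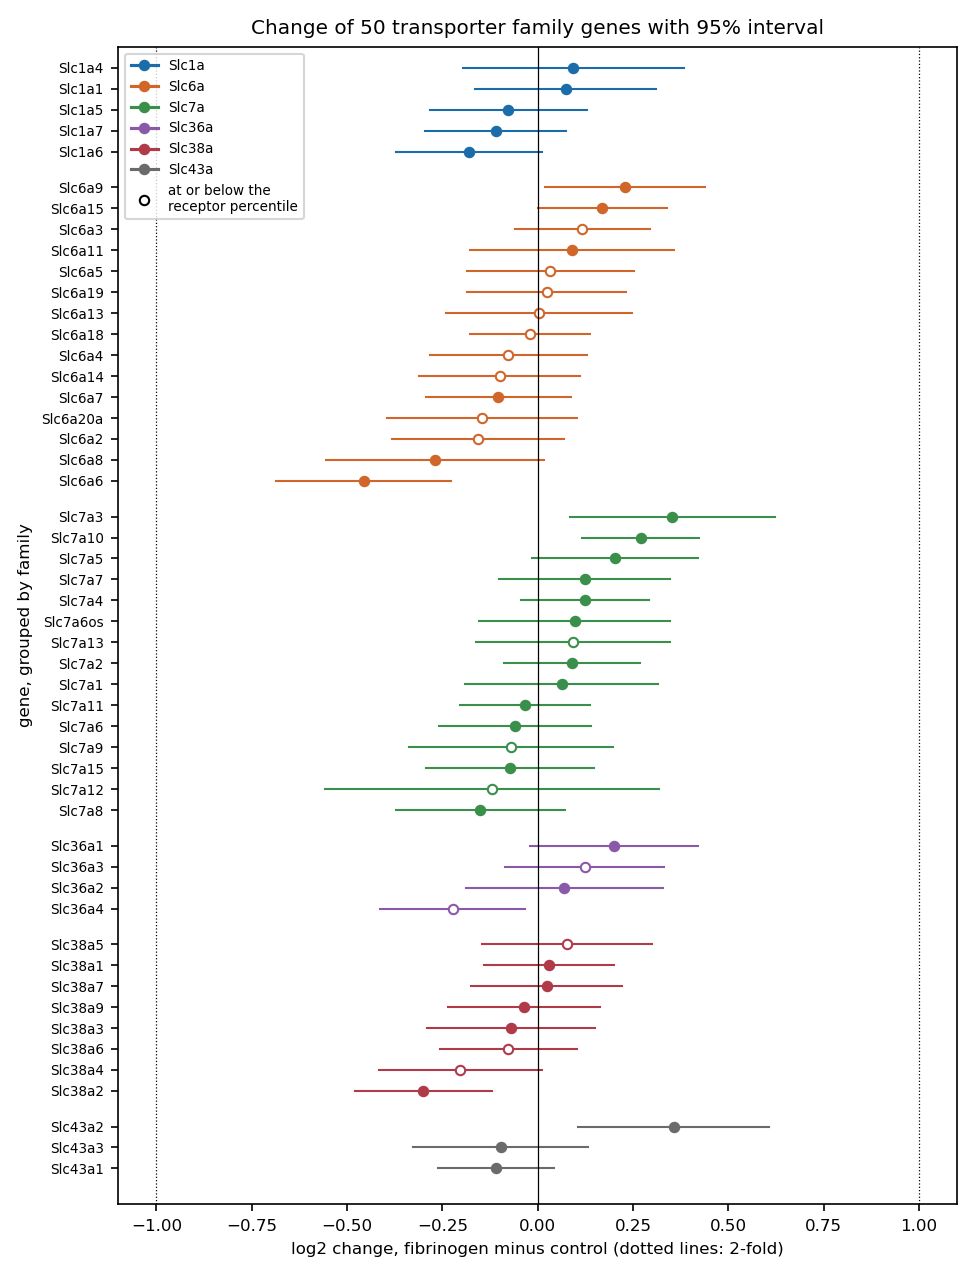
Log2 change (fibrinogen minus control, horizontal axis) of each of the 50 genes, grouped by family, with its 95% interval from limma as a line. Open points are genes with a mean level at or below the 95th percentile of the olfactory and vomeronasal receptor genes, the background measure. All intervals lie inside the dotted lines that mark a 2-fold difference, and Slc6a6 lies farthest from 0.

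**Figure D2:**
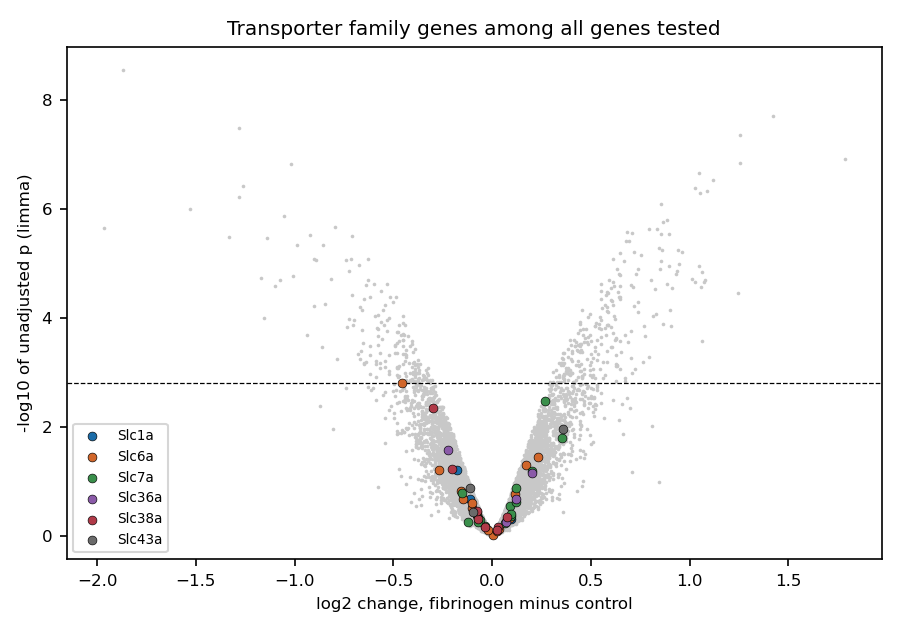
Log2 change (horizontal axis) against -log10 of the unadjusted limma p (vertical axis) for all 13949 genes in grey and the 50 members in colour by family. The dashed line marks the lowest point of a gene with an adjusted p under 0.05; no member is called, and Slc6a6 lies just under the line.

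The olfactory and vomeronasal receptor genes, 956 in number, served as a measure of background, and the 95th percentile of their mean log2 levels was 5.51. Of the members 33 lay above that level (66%), against 71.3% of all genes. All 5 Slc1a and all 3 Slc43a genes did, with 12 of 15 Slc7a, 5 of 8 Slc38a, 6 of 15 Slc6a and 2 of 4 Slc36a genes. The signal of the other 17 cannot be told from that background. Within the genes above that level, the groups did not overlap for 9 of 33 members and 25.7% of all, and an unadjusted p under 0.05 was reached by 7 of 33 and 18.7%. When only these genes were fitted, 1 of 33 members was called higher (Slc7a10) and 1 lower (Slc6a6), against 3.39% and 2.59% of all. Taken over all genes, the SD of single arrays around the mean of their group was 0.146 on fibrinogen 2 and between 0.0862 and 0.114 on the other arrays, so values without it are given for several genes below. Among the members fibrinogen 2 was alone the lowest fibrinogen array for 25 of 50, against 37.4% of all genes, and fibrinogen 3 alone the highest for 28 of 50, against 31.7%.

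The labelled cell type was checked on markers. Of 8 OPC markers 7 were measured, all above the receptor percentile, and 4 of them (Pdgfra, Cspg4, Gpr17 and Neu4) fell. Of 8 measured astrocyte markers 7 lay above it and 1, Gfap, rose. The summed astrocyte marker level, as log2 of the summed linear levels, ran from 11.38 to 11.41 in controls and from 11.62 to 11.89 with fibrinogen. That of OPC markers ran from 14.05 to 14.09 and from 13.75 to 13.88. Within the lists the changes differed. Gfap had a log2 change of 1.24, S100b 0.46, Fgfr3 0.30 and Aldoc 0.21, whereas Aqp4, Gja1, Gjb6 and Slc4a4 lay between -0.11 and 0.08. The OPC markers Sox10, Olig1 and Ptprz1 had changes of -0.05, -0.07 and -0.03. The microglia markers, at log2 of their sum, lay between 8.81 and 8.83 and between 8.69 and 8.83, with 4 of 8 above the percentile, and Itgam, Aif1, Csf1r and C1qa below it. Neuron markers were all above the percentile (8 of 8), with 0 called and sums from 11.29 to 11.30 in controls and from 11.30 to 11.40 with fibrinogen. Among them Syt1, a synaptic vesicle protein gene, was at 8.58 on fibrinogen 2 and between 7.60 and 7.65 on the other arrays. Snap25, Rbfox3, Nefl and Nefm were also highest on fibrinogen 2, at 7.95, 6.93, 6.08 and 8.06. Stmn2 and Tubb3 went otherwise and were lowest on fibrinogen 2, at 8.16 and 9.78. Syn1 was at 8.81 on fibrinogen 2, at 8.73 and 8.80 on the other fibrinogen arrays and between 8.82 and 8.89 in controls. Mature oligodendrocyte markers had 4 of 5 above the percentile and sums from 10.68 to 10.76 and from 10.72 to 11.04. Endothelial markers had 1 of 4 above it (7.02 to 7.04 and 7.04 to 7.09), pericyte and fibroblast markers 3 of 5 (8.36 to 8.44 and 8.35 to 8.45), and no gene of these lists was called. The part of these markers in the transporter values, and in those of fibrinogen 2, was not tested. In bulk samples fewer cells of a type and less RNA per cell cannot be told apart.

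In the Slc6a family the genes for the carriers of taurine and creatine had the largest negative differences. Slc6a6 imports taurine, an osmolyte that glia hold in large amounts. Its log2 levels were 8.18, 8.37 and 8.29 in controls and 7.90, 7.62 and 7.95 with fibrinogen. All 3 fibrinogen arrays lay below all 3 controls, and fibrinogen 2 was the lowest. The mean went from 8.28 ± 0.10 to 7.82 ± 0.18 (SD, n = 3 each), a log2 change of -0.46 ± 0.10 (SE) and 0.729 of the control level. Its adjusted p in limma was 0.0510, the lowest of the members and just outside the threshold. It came to 0.0326 when dim genes were left out, 0.0435 after median centring and 0.0313 with trended, robust moderation, and to between 0.0620 and 0.196 with 1 array left out. Without fibrinogen 2 the log2 change was -0.355.

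Slc6a8 imports creatine, which buffers ATP and is made in part by oligodendrocytes. Its levels were 8.97, 9.10 and 8.99 in controls and 8.90, 8.44 and 8.91 with fibrinogen. The groups did not overlap, but fibrinogen 2 stood 0.46 below the next array and the others lay close to the controls. The log2 change of -0.27 ± 0.13 (SE) had an adjusted p of 0.352 in limma, and was -0.12 without fibrinogen 2 (adjusted p = 0.437).

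The glycine carrier genes had positive differences. Slc6a9, the glycine carrier of glia, had levels of 8.54, 8.41 and 8.52 in controls and 8.86, 8.55 and 8.75 with fibrinogen. The lowest fibrinogen array, replicate 2, lay 0.01 above the highest control, so the groups were barely apart. The log2 change was 0.23 ± 0.09 (SE) with an adjusted p of 0.272 in limma, and 0.32 without fibrinogen 2 (adjusted p = 0.0760). Across the fits that left out 1 array, it ran from 0.16 to 0.32 and the adjusted p from 0.0760 to 0.577 (limma). Slc6a5, the glycine carrier of glycinergic neurons, lay below the receptor percentile with a change of 0.03.

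Slc6a11, the GABA carrier of astrocytes, had levels of 6.12, 6.10 and 6.14 in controls and 5.92, 6.34 and 6.37 with fibrinogen. The controls were nearly equal, whereas the fibrinogen arrays fell on both sides of them (log2 change 0.09 ± 0.12, SE; adjusted p = 0.790, limma). The change was 0.235 without fibrinogen 1, 0.025 without fibrinogen 2 and 0.01 without fibrinogen 3. Slc6a13, another GABA carrier gene, lay below the receptor percentile with a change of 0.0033.

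The monoamine carrier genes Slc6a2, Slc6a3 and Slc6a4, for noradrenaline, dopamine and serotonin, all lay below the receptor percentile. Their log2 changes were -0.16, 0.12 and -0.08. The amino acid carriers of the Slc6a family were mostly dim as well, with 2 of 6 above the percentile. One of those above it, Slc6a15, which carries branched-chain amino acids and proline in brain, had levels of 7.37, 7.33 and 7.25 in controls and 7.56, 7.40 and 7.50 with fibrinogen. The groups did not overlap, by 0.03 at the closest, and the log2 change was 0.17 ± 0.07 (SE; adjusted p = 0.319, limma). The gut and kidney carrier genes Slc6a18, Slc6a19 and Slc6a20a lay below the percentile with changes between -0.15 and 0.02.

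**Figure D3:**
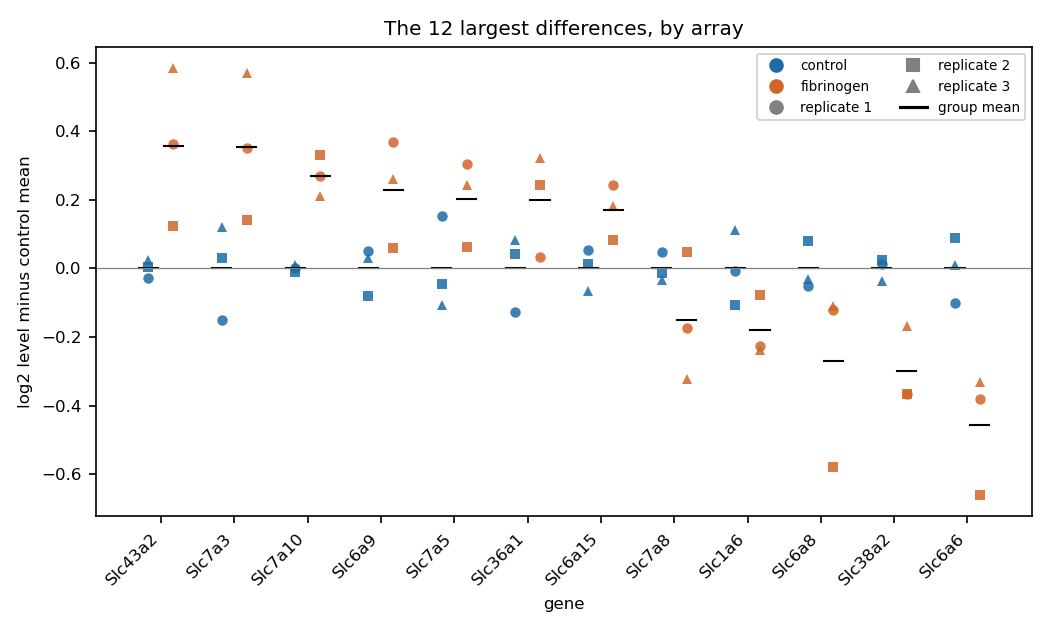
Log2 level minus the control mean of the gene (vertical axis) on each of the 6 arrays for the 12 members with the largest differences above the receptor percentile; colour gives the group, marker shape the replicate number and the short line the group mean. Fibrinogen 2 (square) lies nearest to the controls for Slc43a2, Slc7a3, Slc6a9, Slc7a5, Slc6a15, Slc1a6 and Slc7a8 and farthest from them for Slc6a8, Slc6a6 and Slc7a10.

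In the Slc1a family of glutamate and neutral amino acid carriers the groups overlapped for all 5 genes. Slc1a1 takes up glutamate, and cysteine for glutathione, in neurons and oligodendrocyte lineage cells. Its levels were 10.55, 10.56 and 10.62 in controls and 10.70, 10.42 and 10.83 with fibrinogen. Fibrinogen 2 lay below every control and the other fibrinogen arrays above every control, which gave a log2 change of 0.07 ± 0.10 (SE; adjusted p = 0.810, limma) and 0.19 without fibrinogen 2 (adjusted p = 0.215).

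Slc1a4, an exchanger of serine and alanine, had control levels of 7.47, 7.40 and 7.14 and fibrinogen levels of 7.39, 7.23 and 7.67, of which fibrinogen 3 lay above every control. Slc1a5, an exchanger of glutamine, had 6.66, 6.61 and 6.56 and 6.49, 6.40 and 6.71. Their log2 changes were 0.09 ± 0.13 and -0.08 ± 0.09 (SE), and 0.19 and -0.01 without fibrinogen 2. Neither group stood apart for these exchangers. Slc1a6, best known as a glutamate carrier of Purkinje cells, had a change of -0.18 ± 0.08 (SE; adjusted p = 0.353, limma), with controls at 5.72, 5.62 and 5.84 and fibrinogen arrays at 5.50, 5.65 and 5.49. Both Slc1a6 and Slc1a7, a glutamate carrier of retina with a change of -0.11, lay close to the receptor percentile.

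Among the cationic carriers of the Slc7a family, Slc7a1, Slc7a2 and Slc7a3 import arginine and lysine. Their genes and that of the related Slc7a4 all had positive differences, the sign of 48.5% of all genes. Slc7a3, the form found mainly in brain, had levels of 9.87, 10.05 and 10.14 in controls and 10.37, 10.16 and 10.59 with fibrinogen. The groups were separate by 0.02, with fibrinogen 2 next to the highest control. The means were 10.02 ± 0.14 and 10.37 ± 0.22 (SD, n = 3 each). The log2 change of 0.35 ± 0.12 (SE) missed the threshold, with an adjusted p of 0.181 in limma. Without fibrinogen 2 it was 0.46, with an adjusted p of 0.0722. Across the fits that left out 1 array, the change ran from 0.245 to 0.46 and the adjusted p from 0.0722 to 0.456 (limma).

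Slc7a1, the widely expressed form, had control levels of 8.56, 8.22 and 8.27 and fibrinogen levels of 8.41, 8.27 and 8.56. Control 1 and fibrinogen 3 shared the highest value, and the log2 change was 0.06 ± 0.11 (SE). Slc7a2 and Slc7a4 had changes of 0.09 and 0.12, with groups that overlapped or touched.

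Among the light chains, Slc7a10 had the lowest unadjusted p. Its protein exchanges glycine, alanine and serine, D-serine included. The levels were 6.75, 6.74 and 6.76 in controls and 7.02, 7.08 and 6.96 with fibrinogen. The controls lay within 0.02 of each other, and every fibrinogen array was at least 0.20 higher. The log2 change was 0.27 ± 0.07 (SE), 1.21-fold, with an adjusted p of 0.0764 in limma. It passed only when dim genes were left out, at 0.0419, and ran from 0.0927 to 0.256 with 1 array left out.

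Slc7a5, the carrier of large neutral amino acids such as leucine, had levels of 9.69, 9.49 and 9.43 in controls and 9.84, 9.60 and 9.78 with fibrinogen. Control 1 lay above fibrinogen 2, so the groups overlapped (log2 change 0.20 ± 0.10, SE; adjusted p = 0.359, limma; 0.27 without fibrinogen 2). Slc3a2, the heavy chain that brings it to the membrane, had 10.51, 10.27 and 10.24 and 10.55, 10.25 and 10.54, a change of 0.11 ± 0.11 (SE; adjusted p = 0.714, limma) and 0.205 without fibrinogen 2. Control 1 was the highest control, and fibrinogen 2 the lowest fibrinogen array, for Slc3a2, Slc7a5 and Slc7a1 alike.

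Slc7a11 exchanges glutamate for cystine, the source of cysteine for glutathione. Its levels of 8.83, 8.93 and 8.82 in controls and 8.90, 8.74 and 8.84 with fibrinogen overlapped, with fibrinogen 2 below every control. The log2 change was -0.03 ± 0.07 (SE), with a 95% interval from -0.20 to 0.14. Slc7a8, a second carrier of large neutral amino acids, had 6.78, 6.72 and 6.70 and 6.56, 6.78 and 6.41, and fibrinogen 2 lay among the controls while the other arrays lay below them. Its change was -0.15 ± 0.10 (SE), -0.25 without fibrinogen 2 (adjusted p = 0.130, limma) and -0.06 without fibrinogen 3 (adjusted p = 0.810). Slc7a6, which exchanges cationic for neutral amino acids, differed by -0.06 (0.0067 without fibrinogen 2), and the kidney light chain genes Slc7a9, Slc7a12 and Slc7a13 lay below the receptor percentile with changes between -0.12 and 0.09.

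In the Slc38a family Slc38a2, which imports glutamine and alanine and is raised by amino acid shortage, had levels of 10.81, 10.82 and 10.76 in controls and 10.43, 10.43 and 10.63 with fibrinogen. Every fibrinogen array lay below every control, with fibrinogen 3 the closest. The mean went from 10.80 ± 0.03 to 10.50 ± 0.12 (SD, n = 3 each), a log2 change of -0.30 ± 0.08 (SE) and 0.812 of the control level. Its adjusted p was 0.0894 in limma, and it passed only with trended, robust moderation, at 0.0361. With 1 array left out the adjusted p ran from 0.0635 to 0.280.

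Slc38a1, a close relative encoded next to Slc38a2, had levels of 10.18, 10.08 and 10.08 in controls and 10.12, 10.07 and 10.24 with fibrinogen. These values overlapped, with a log2 change of 0.03 ± 0.08 (SE) and a 95% interval from -0.14 to 0.20. The interval of Slc38a2 ran from -0.48 to -0.12; the difference between these genes was not tested. Slc38a3, which moves glutamine in either direction in astrocytes, had 8.84, 8.71 and 8.72 and 8.69, 8.51 and 8.86, a change of -0.07 ± 0.10 (SE) that was 0.018 without fibrinogen 2. The lysosomal arginine sensor gene Slc38a9 differed by -0.04 and the lysosomal glutamine carrier gene Slc38a7 by 0.02, while Slc38a4, Slc38a5 and Slc38a6 lay below the receptor percentile.

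In the Slc43a family Slc43a2, a carrier of branched-chain amino acids and methionine, had the largest positive difference of all members. Its levels were 7.84, 7.87 and 7.89 in controls and 8.23, 7.99 and 8.45 with fibrinogen. All fibrinogen arrays lay above the controls, but they spread over 0.46 while the controls spread over 0.05. The mean went from 7.87 ± 0.03 to 8.22 ± 0.23 (SD, n = 3 each), a log2 change of 0.36 ± 0.11 (SE), 1.28-fold, with an adjusted p of 0.149 in limma. Without fibrinogen 2 it rose by 0.47 and passed (adjusted p = 0.0332), and it was the single member called in that fit; with any other array left out its adjusted p was between 0.256 and 0.354.

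Slc43a1, a related carrier of branched-chain amino acids, had levels of 6.21, 6.14 and 6.14 in controls and 6.01, 6.07 and 6.08 with fibrinogen. The groups did not overlap, but the difference was small (log2 change -0.11 ± 0.07, SE; adjusted p = 0.490, limma). Slc43a3, which carries purine bases, differed by -0.10 with overlapping groups.

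Of the proton-coupled carriers, Slc36a1, which exports small amino acids from lysosomes, had levels of 6.75, 6.92 and 6.96 in controls and 6.91, 7.12 and 7.20 with fibrinogen. Fibrinogen 1 lay among the controls, and the log2 change was 0.20 ± 0.10 (SE; adjusted p = 0.374, limma). Slc36a4, a carrier of proline and tryptophan below the receptor percentile in mean level, had 5.69, 5.48 and 5.57 and 5.41, 5.25 and 5.41, without overlap (change -0.22 ± 0.08, SE; adjusted p = 0.236, limma). Slc36a2 and Slc36a3 differed by 0.07 and 0.12.

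By position in the RefSeq gene table of assembly GRCr8, 6 pairs of members were next to each other among coding genes. The run Slc38a1, Slc38a2 and Slc38a4 had log2 changes of 0.03, -0.30 and -0.20. The run Slc36a3, Slc36a2 and Slc36a1 had 0.12, 0.07 and 0.20, and Slc6a19 and Slc6a18 had 0.02 and -0.02. Slc7a6 and its neighbour Slc7a6os differed in sign, with -0.06 and 0.10. Neighbours thus had like differences in some runs and unlike ones in others, and none of them passed the test.

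Outside the 20 members chosen by rule for values by array, 30 remained, Slc36a4 and Slc43a1 among them. The log2 changes of the 30 lay between -0.22 and 0.12, with a lowest adjusted p of 0.236 (limma, Slc36a4). By family these ran from -0.16 to 0.12 in 10 Slc6a genes, from -0.12 to 0.12 in 9 Slc7a genes, from -0.22 to 0.12 in 3 Slc36a genes and from -0.20 to 0.08 in 5 Slc38a genes.

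Genes that work beside the transporters were counted in 6 lists, of which 72 of 85 genes were measured. In these lists 1 gene rose and 1 fell (limma), 2.78% of the genes against 3.10% of all genes, and the median log2 change was 0.005. Both were enzymes of transmitter and amino acid metabolism, a list in which 16 of 18 genes did not pass and the median was -0.01. Cdo1 oxidises cysteine, the first step from cysteine to taurine. Its levels were 8.66, 8.68 and 8.83 in controls and 9.47, 9.25 and 9.38 with fibrinogen, clearly separate groups. It rose by 0.64 ± 0.08 on the log2 scale (SE; adjusted p = 0.00567, limma) and kept an adjusted p of at most 0.0371 with any 1 array left out. Csad, the enzyme of the next step to taurine, had a change of -0.16 ± 0.09 (SE; adjusted p = 0.430, limma), and the taurine importer Slc6a6 the negative difference given above.

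Gad2, which makes GABA, had levels of 5.30, 5.24 and 5.52 in controls and 4.78, 4.85 and 4.68 with fibrinogen. It fell by 0.58 ± 0.09 (SE; adjusted p = 0.0130, limma) at a mean level below the receptor percentile, and lost its call without control 3 (adjusted p = 0.0514). The glycine cleavage gene Gldc had a change of -0.22 ± 0.07 (SE) and the creatine synthesis gene Gamt one of 0.19 ± 0.07 (SE), and neither passed (adjusted p = 0.197 and 0.207, limma).

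The amino acid response list had 0 of 15 genes called and a median log2 change of 0.06. Before adjustment 4 genes above and 1 below 0 had p under 0.05 (limma), or 33.3% of the list against 15.6% of all genes. By direction these were 4 of 15 against 8.12% of all genes higher, and 1 of 15 against 7.46% lower. All 15 genes lay above the receptor percentile, and among all genes above it the share in either direction was 18.7%. Nupr1, a stress-induced chromatin protein, and Cebpb, a transcription factor, had the largest changes, 0.42 ± 0.10 and 0.35 ± 0.11 (SE; adjusted p = 0.0761 and 0.141, limma). The asparagine synthetase gene Asns had levels of 9.27, 9.05 and 9.05 in controls and 9.27, 9.55 and 9.40 with fibrinogen, and the serine synthesis gene Psat1 had 10.06, 9.92 and 9.93 and 9.63, 9.81 and 9.76. For Asns fibrinogen 1 equalled control 1, and for Psat1 every fibrinogen array lay below every control. Their log2 changes were 0.28 and -0.24 (adjusted p = 0.195 and 0.181, limma). Ddit3, another gene of the list, also had a change of 0.28. Nupr1, Cebpb, Asns and Ddit3, the 4 higher at an unadjusted p under 0.05, were all highest on fibrinogen 2. Without that array their changes were 0.40, 0.25, 0.21 and 0.13, and that of Psat1 was -0.275. Atf4 itself differed by 0.04 ± 0.07 (SE).

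The other lists had no called gene in limma. Of 9 glutathione genes 1 was higher at an unadjusted p under 0.05, and the largest changes were those of the glutathione synthetase gene Gss (0.23 ± 0.10, SE) and of Gclm (0.17 ± 0.09), the regulatory subunit of the enzyme that starts glutathione synthesis. Of 14 genes of lysosomal amino acid sensing 1 was lower at that level, the sestrin gene Sesn1 (-0.22 ± 0.08, SE), followed by Lamtor5 (-0.19 ± 0.14), a subunit of the lysosomal scaffold of mTORC1. Lamtor5 had 10.14, 9.99 and 10.12 in controls and 10.12, 9.54 and 10.03 with fibrinogen, and its change was -0.0083 without fibrinogen 2. Of 8 heavy chains and other solute carriers 0 passed even unadjusted, with Slc15a4, a lysosomal peptide carrier, at -0.22 ± 0.11 and Slc66a1, a lysosomal exporter of cationic amino acids, at -0.13 ± 0.07 (SE). Of 8 vesicular transmitter carriers 0 passed unadjusted and 2 lay above the receptor percentile. The largest changes there were 0.15 ± 0.10 for Slc18a1, a vesicular monoamine carrier, and -0.10 ± 0.08 for both Slc18a2 and Slc18a3 (SE).

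**Figure D4:**
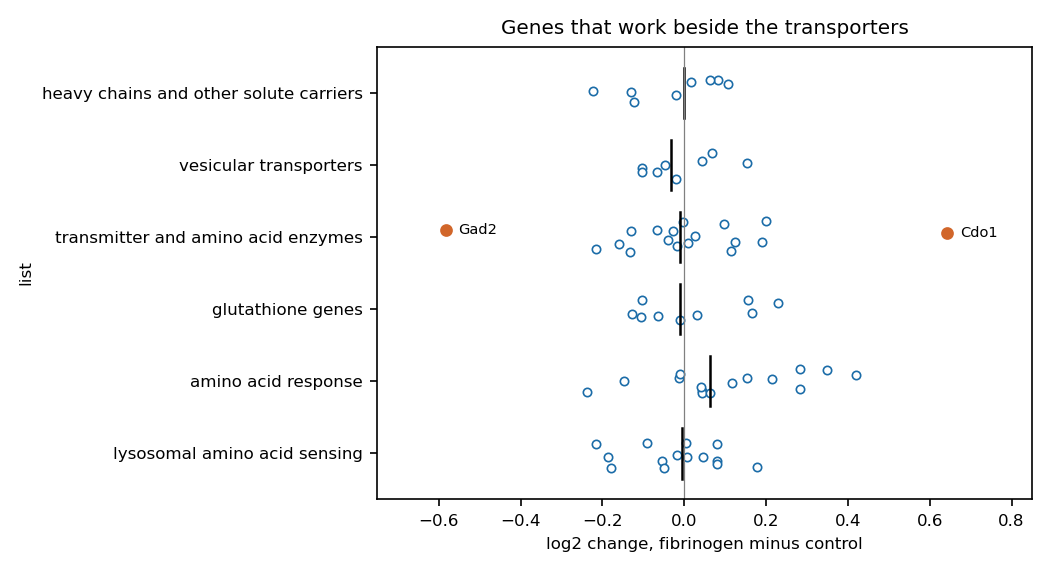
Log2 change (fibrinogen minus control, horizontal axis) of each measured gene of the 6 lists of genes that work beside the transporters; filled points passed at an adjusted p under 0.05 in limma, open points did not, and black lines are list medians. Cdo1 (0.64) and Gad2 (-0.58) lie apart from the other 70 genes.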

How the data were processed

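RNA from 6 samples (3 control, 3 fibrinogen) was amplified and labelled with NuGEN kits, per the labels' protocols. The deposited values are log2 levels per probe set; per the submitters' processing notes RMA and limma were used, without versions or settings, and the log2 scale was inferred from the values deposited. RMA can compress differences of dim genes. The build of the array's annotation is not given in the sources used here. Of 26312 probe sets 1206 were blank. The 14700 with values and 1 gene symbol gave 13949 genes, the probe set with the highest mean being kept; no member had a second one. Probes of near-identical family members could share signal.

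Fibrinogen minus control was fitted with limma 3.58.1 in R 4.3.3 (lmFit, eBayes, two-sided), with Benjamini-Hochberg adjustment over 13949 genes and a threshold of 0.05; SEs and 95% intervals are moderated, SDs are over 3 arrays. A permutation test of 3 against 3 cannot go below 0.1 and was not run. The labels do not say that samples came from separate cultures, so p-values measure the spread between samples, which may be technical. Between any 2 arrays, no more than 3.63% of the values were the same. 0 columns belonged to other samples.

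Named genes were those past the threshold, the 12 largest differences above the receptor percentile and 13 genes of a fixed list. From related lists came the called genes or the 2 largest changes. Csad, Gldc, Gamt, Asns, Psat1, Atf4, Trib3, Ddit3, Phgdh, Psph, Slc3a2, Slc36a4 and Slc43a1 were added after values were seen. Members, lists and rules were chosen with earlier results of these data known. Alternatives were the mean of a gene's probe sets, a filter at the receptor percentile, median centring, trended and robust moderation, the replicate number as a block, each array left out and, added after the data were seen, array weights. The procedure was tested on simulated data with planted differences larger than that of any member. That test cannot show how well differences of the members' size are found. The number of arrays limits the precision.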

Additional observations from a re-analysis of the deposited data

How the results depend on the processing

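Across the alternatives, 46 of 50 transporter genes passed in none of 12, Slc6a6 passed in 4, Slc43a2 in 2, and Slc38a2 and Slc7a10 in 1 each. One of the alternatives, the filter at the receptor percentile, tested only the 33 members above it and not the other 17. With 1 array left out, 151 to 436 of all genes changed, 0 to 1 transporter genes were higher and 0 lower, and 1 to 3 genes of the related lists changed. Array weights, which gave fibrinogen 2 the lowest weight (0.318), called 659 genes, with 1 transporter gene higher (Slc43a2, adjusted p = 0.0258) and 1 lower (Slc6a6, 0.0297). Only genes above the receptor percentile gave 1 higher (Slc7a10) and 1 lower (Slc6a6), with 1 related gene since Gad2 was not tested there. Median centring gave 1 lower and trended, robust moderation 2 lower (Slc6a6 and Slc38a2). In the fits that held all 50 members their median change stayed between -0.033 and 0.0092. In the fit of the 33 above the receptor percentile it was 0.03. All lay within 0.040 of the main value (-0.0083), the last only narrowly. That distance is the SD of the medians of the 3 fibrinogen arrays. With 1 array left out the sign turned in 21 of 50 members, none with a log2 change beyond 0.12 in size, and the cause was not tested. Of the 20 chosen by rule for values by array these were 6. Slc1a1 ran from -0.017 to 0.19, Slc1a4 from -0.027 to 0.19 and Slc7a1 from -0.010 to 0.17. Slc7a11 ran from -0.070 to 0.010, Slc38a1 from -0.018 to 0.067 and Slc38a3 from -0.16 to 0.018. The sign of Slc38a3 also turned with array weights (0.010). Same-numbered arrays deviated together only weakly (correlations 0.028, 0.022 and 0.011 over all genes), each more than with other numbers. The replicate block called 315 genes, with 0 transporter genes in either direction and the lowest adjusted p at 0.0845 for Slc6a6. The signal of 17 members cannot be told from the receptor background.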

Other observations

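For 9 of 15 amino acid response genes control 1 was alone the highest control, and for 1 the lowest. Over all genes it was the highest for 33.9% and the lowest for 32.1%. In the same list fibrinogen 2 was alone the highest fibrinogen array for 8 of 15 genes, against 36.6% of all genes. It was alone the lowest for 4, against 37.4%. Trib3, a pseudokinase induced by Atf4, had levels of 5.92, 5.59 and 5.57 in controls and 5.76, 5.78 and 5.67 with fibrinogen. The glutathione genes differed by array too, with fibrinogen 1 alone the highest fibrinogen array for 7 of 9 and fibrinogen 2 the lowest for 6 of 9, against 28.1% and 37.4% of all genes. These lists were singled out by array after their values were seen, and no test was made.

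Serine is a substrate of several of these carriers. Phgdh, the first enzyme of serine synthesis, had levels of 9.10, 9.06 and 8.91 in controls and 9.19, 8.67 and 9.17 with fibrinogen, so that fibrinogen 2 stood apart. Psph, the last enzyme, had 9.61, 9.44 and 9.42 and 9.25, 9.40 and 9.38, all fibrinogen arrays below all controls, with a log2 change of -0.15 ± 0.08 (SE; adjusted p = 0.447, limma).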
